A study of Bos taurus with 72 samples.

Results

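The 100 genes described here had the lowest RNA levels, relative to every other treatment, when either leucine or valine was the single essential amino acid (EAA) given to bovine mammary epithelial cells (BMECs). They were chosen by measured values. Genes with an Ensembl bovine identifier and a mean FPKM of at least 5 over the 72 libraries were scored. FPKM is the number of reads on a gene divided by the gene's length and by a factor for the library. For each treatment the median of log2(FPKM + 1) over its 6 libraries was taken. The score was the higher of the Leu and Val medians minus the lowest of the medians of the other 10 treatments, and the 100 most negative scores gave the set, out of 8643 genes scored and 29550 genes in the table. A score below 0, meaning that both Leu and Val lay below all 10 others, was found for 1245 genes. A difference of Leu or Val from any other treatment is therefore part of the selection and is given below as a description without a test.

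Leucine, isoleucine and valine are the branched-chain amino acids. They enter cells through shared transporters, and the first steps of their breakdown use the same aminotransferase and dehydrogenase enzymes. Leucine is also sensed inside the cell and acts on mTORC1, the kinase complex that promotes protein synthesis, and a shortage of amino acids acts through the kinase GCN2 and the transcription factor ATF4. BMECs are the cells that make milk protein in the udder, and they take up essential amino acids for that purpose.

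The cells were wild-type primary BMECs from the mammary tissue of healthy dairy cows, separated from fibroblasts by their sensitivity to trypsin and used at passage 6. All cultures, the controls included, were serum-starved overnight and then kept for 6 h in 1 of 12 media. NEG was DMEM-F12 medium free of all EAA, POS was the complete DMEM-F12 medium, and in each of the other 10 treatments NEG received a single EAA (Arg, His, Ile, Leu, Lys, Met, Phe, Thr, Trp or Val) at its concentration in POS. Each treatment had 6 replicates, described as biological, and the sources do not tie them to separate animals, so p-values measure the spread between these cultures. The deposited table does not pair identifiers with gene symbols, and 0 of the 100 identifiers were found in the bovine reference table of 37063 genes, so the functions of the genes, their sequences and the epithelial markers of the cultures were not examined here. In bulk RNA, fewer cells of a type and less RNA per cell cannot be told apart.

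Libraries held between 12006111 and 18602430 reads on genes. Leu_1 stood apart with the fewest reads, 12006111, and with 10495 genes above 0, against 15747 to 16716 in the other 5 Leu libraries. Val_3 stood apart in the other direction, with 18379953 reads and 18393 genes above 0, the most of the 72 libraries, against 16565 to 17247 genes in the other 5 Val libraries. Arg_4 and POS_4 were also low in genes above 0, with 11838 and 13537. In the 100 genes Val_3 was nearer to NEG than to the other Val libraries. Some libraries of other single EAA, such as Arg_5, Arg_6 and Trp_1, were nearer still, so nearness to NEG does not decide its label. The label of Val_3 and the state of Leu_1 remain in doubt, and neither could be settled from the files. Main values that turn on Leu_1, Val_3, Arg_4 or POS_4 are given with and without them.

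Over the 100 genes, the median FPKM by treatment was highest in NEG (21.8) and lowest in Leu (8.05) and Val (7.02). Between these lay Thr (20.5), Phe (18.7), POS (17.6), Arg (15.9), Lys (14.8), Ile (13.4), Trp (13.2), Met (11.4) and His (10.9). The whole scored set moved little over the same treatments, with median FPKM from 16.2 in Val to 18.0 in NEG. Most of the 100 genes were thus lower with many single EAA than without any, and lowest with Leu and Val.

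On the log2(FPKM + 1) scale, the median over the 100 genes of the difference of the treatment median from NEG was −1.18 in Leu (from −2.23 to −0.59) and −1.36 in Val (from −3.11 to −0.58). These values belong to the selection. Next came His at −0.74, Met at −0.68, Trp at −0.58 and Ile at −0.50, followed by Lys and Arg at −0.36 each and POS at −0.31. Phe at −0.14 and Thr at −0.03 were nearest to NEG. Over the 8643 genes scored the same medians lay between −0.03 and −0.13. The lowest of the 10 other treatments, which the score was set against, was His for 49 genes, Met for 31, Trp for 10, POS for 4, Ile for 3, Arg for 2 and Lys for 1, and never NEG, Phe or Thr. His and Met thus came nearest to Leu and Val, in these medians, rather than isoleucine, the third branched-chain amino acid.

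**Figure D1:**
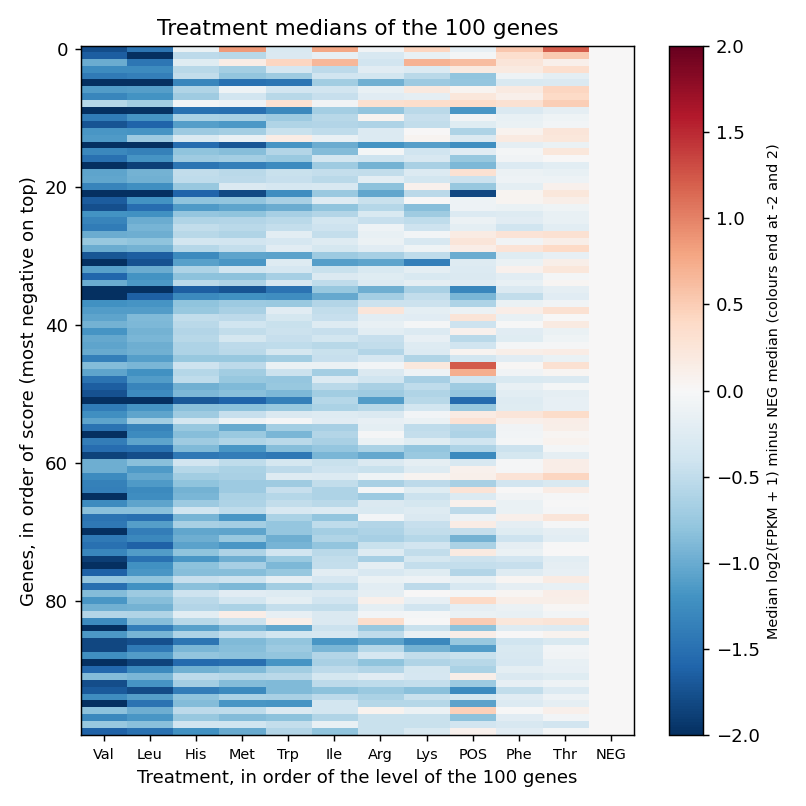
Heat map of the 100 genes (rows, in order of score, the most negative on top) in the 12 treatments (columns). Colour is the treatment median of log2(FPKM + 1) minus the NEG median. The Val and Leu columns are blue throughout because the genes were selected so, the next columns (His, Met, Trp, Ile) are paler, and Phe and Thr are near white.

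The scores had no step at the limit. The most negative score was −1.16 and the second −1.09, the 10th was −0.47 and the 50th −0.35. The 99th and 100th genes, just inside, scored −0.2936 and −0.2932, and the 2 genes just outside scored −0.2931 and −0.2929.

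The gene with the most negative score, ENSBTAG00000053870, had a recovered length of 46 bp and a median of 4 reads per library. Its FPKM ranged from 0 to 8.54 in Leu (median 1.36) and from 0 to 8.34 in Val (median 0.702), with 3 libraries at 0 in each. In Ile it ranged from 0 to 20.5 (median 8.03) and in NEG from 2.67 to 10.5 (median 4.44). All 4 ranges overlapped, and 3 reads in Leu_1 would already stand for 5.65 FPKM, so the score of this gene rests on a few reads and the groups could not be set apart at this depth.

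The second gene, ENSBTAG00000054535, was 219 bp long with a median of 21.5 reads per library. Its FPKM in Leu ran from 0 to 3.15 (median 1.19) and in Val from 0.871 to 5.25 (median 1.56). In Ile the values ran from 0 to 8.65 (median 6.06), and in NEG from 0.676 to 8.70 (median 6.93). Most Ile and NEG libraries lay above most Leu and Val libraries, but the ranges overlapped, with Ile_1 at 0, NEG_2 at 0.676 and Val_3 at 5.25.

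The deepest of the 100, ENSBTAG00000012044, was named for its depth after its values were seen. It had a length of 927 bp, a median of 13487 reads per library and rank 36 in the score. Its FPKM was between 1429 and 2926 in NEG (median 1581), between 531 and 1056 in Ile (median 936), between 58.6 and 601 in Leu (median 371) and between 206 and 1476 in Val (median 243). The Val range was opened by Val_3, since the other 5 Val libraries lay between 206 and 260. The 6 Ile libraries lay below all NEG libraries. In the comparison of Ile with NEG the log2 fold change was −1.04 (SE 0.20, adjusted p = 0.0022 by limma).

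The 100 genes were for the most part well covered. Their median of reads per library was 514, against 695.5 over the genes scored. A median of at least 100 reads was found for 94 genes (96.5% of the genes scored), and 2 had a median under 20 reads (0.764%). Mean FPKM ranged from 5.30 to 901 with a median of 13.7, and 12 genes had a mean FPKM of at least 100 (8.48%). Their median length was 1841.5 bp against 2387 bp, with 24 genes under 1000 bp and 18 of 3000 bp or more. Among the genes scored, 11.5% were under 1000 bp and 34.5% had 3000 bp or more, so the 100 genes were shorter than the rest by these counts.

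Level per library was measured as the median over the 100 genes of log2(FPKM + 1) minus the NEG median of the gene. In the 6 NEG libraries the level lay between −0.05 and 0.13. In Leu it was −3.23 in Leu_1 and between −1.33 and −0.78 in the other 5. In Val it was −0.14 in Val_3 and between −1.53 and −1.19 in the other 5. The Ile libraries ran from −1.02 in Ile_1 to −0.38, which overlaps Leu at the low end. Single libraries of other treatments also reached the Leu range, among them Trp_6 (−1.23), Met_4 (−1.10), His_4 (−1.03) and Lys_1 (−0.91). Arg_4 (−1.83) and POS_4 (−1.97) lay below every Leu and Val library except Leu_1. Thus the 10 Leu and Val libraries other than Leu_1 and Val_3 stood below all NEG libraries, whereas Val_3 stood near them.

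**Figure D2:**
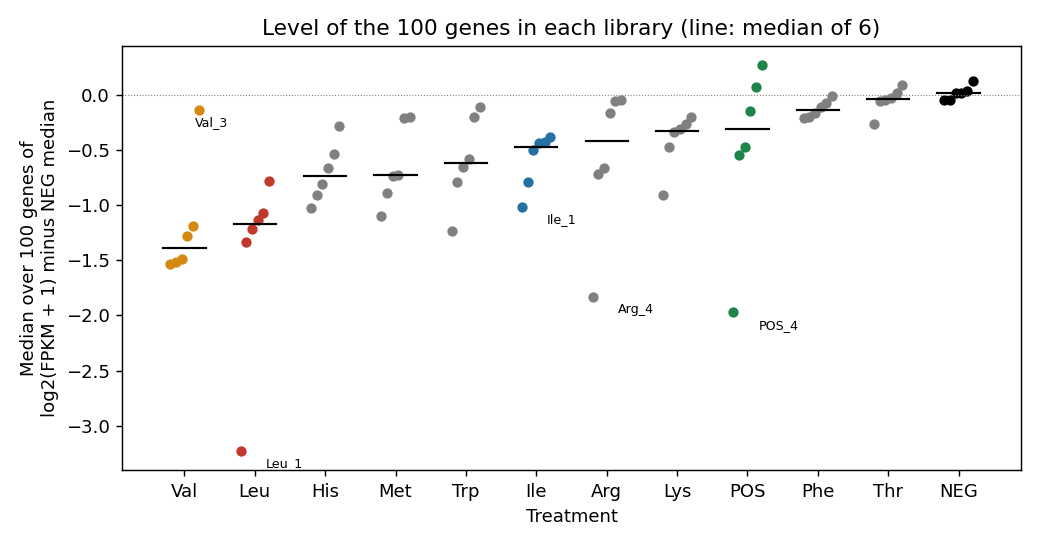
Level of the 100 genes in each of the 72 libraries (points, 6 per treatment, with the median as a line), as the median over genes of log2(FPKM + 1) minus the NEG median. Treatments are in order of their medians. Leu_1 lies at −3.23 and Val_3 at −0.14, each far from the other 5 libraries of its treatment, and POS_4 at −1.97 and Arg_4 at −1.83 are low in theirs.

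In Leu_1, 40 of the 100 genes had 0 reads, as did 10.0% of the genes scored (864 of 8643), where a count of 0 allows up to 3 reads, and 90 had their lowest Leu value there. In the other 5 Leu libraries at most 2 were at 0. In Val_3, 99 of the 100 genes had their highest Val value and 63 lay within the NEG range. The genes were selected for low Val medians, and no share over the genes scored is given beside these counts. Without Leu_1 the median difference of Leu from NEG was −1.11, and without Val_3 that of Val was −1.43. With either library removed, all 100 genes kept Leu and Val medians below those of the 10 other treatments. When the rule was rerun on all scored genes, however, 77 of the 100 genes were selected again without Leu_1, 90 without Val_3 and 69 without both. With treatment means in place of medians only 28 were selected again, and 53 were with means and both libraries removed. Which genes made up the 100 therefore depended on the use of medians and on Leu_1 and Val_3. These counts do not separate the influences, since both libraries also act through the means. The Leu and Val medians of these 100 genes were the lowest with or without either library.

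Level followed the number of genes above 0. In 9 of the 12 treatments the library with the fewest genes above 0 also had the lowest level of the 100 genes, and in 8 of 12 the library with the most genes had the highest level. After the treatment means were removed, the median Pearson correlation over the 4950 pairs of the 100 genes was 0.79 across 72 libraries and 0.70 across the 68 libraries without Leu_1, Val_3, Arg_4 and POS_4, which is a description of genes that share libraries and depth. The part of the number of genes above 0 in the difference between treatments was not tested. The Val libraries without Val_3, at 16565 to 17247 genes above 0, overlapped NEG (16596 to 17707), and their levels were between −1.53 and −1.19 against −0.05 to 0.13. In reads on genes they did not overlap, with 14192523 to 15504263 in these Val libraries and 15907885 to 17910737 in NEG. The Val levels belong to the selection.

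**Figure D3:**
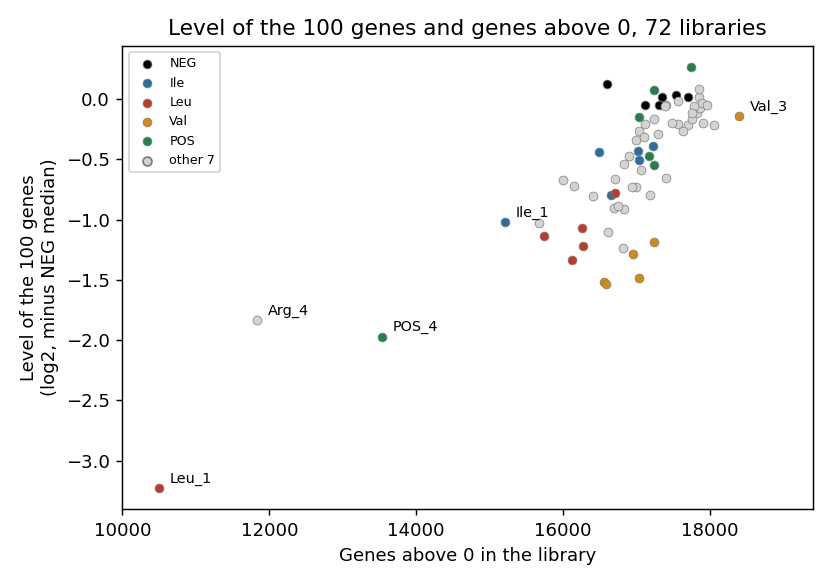
Level of the 100 genes (vertical axis, log2 scale, relative to the NEG medians) against the number of genes above 0 (horizontal axis) in the 72 libraries. Leu_1, Arg_4 and POS_4 lie at the lower left, and Val_3 has the most genes above 0. The other 5 Val libraries lie below the NEG libraries, as selected, at overlapping numbers of genes.

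Separation of single libraries was less complete than that of medians. The 10 Leu and Val libraries without Leu_1 and Val_3 lay below all 6 NEG libraries for 84 of the 100 genes, and all 12 did so for 33. Over the genes scored these shares were 28.4% and 11.3%. Against the 6 Ile libraries, the 10 libraries lay below in 8 genes and all 12 in 0, beside 1.15% and 0.116% of the genes scored. When Ile_1 was also left out, the 10 libraries lay below the 5 remaining Ile libraries in 37 genes, beside 7.42%. The genes were selected in this direction, so the counts describe the overlap of the libraries.

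Isoleucine is the structural isomer of leucine and the third branched-chain amino acid. For all 100 genes the Leu median was below the Ile median (median difference −0.65, from −2.23 to −0.31), and so was the Val median (−0.82, from −2.54 to −0.31), as the selection required. Without Leu_1 the median difference of Leu from Ile was −0.58, and without Val_3 that of Val from Ile was −0.91, with all 100 genes still lower in both.

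The score did not take the difference of Ile from NEG, although both medians were among the 10 that it was set against, and Ile was the lowest of these for 3 genes. In limma fits, of the 100 genes, 75 were lower in Ile and 0 were higher at an adjusted p under 0.05, and 25 did not pass. Of all 12121 genes tested, 25.1% were called lower in Ile. The median log2 fold change of the 100 genes was −0.59 against −0.05 over all genes tested, and 97 had a negative sign. Leaving out each library in turn gave between 65 and 85 genes lower, where between 20.8% and 28.2% of all genes were. In 54 of the 100 genes all 6 Ile libraries lay below all 6 NEG libraries, as in 19.6% of the genes scored. A single fit of all 72 libraries, in which the spread of every treatment is pooled, gave 21, beside 11.2% of all genes tested. Isoleucine thus went with lower levels of most of these genes, by a smaller median difference than leucine or valine, which the selection itself fixed.

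The largest fall was in ENSBTAG00000016664, of 1210 bp and a median of 190.5 reads per library. Its FPKM was between 15.6 and 19.1 in NEG (median 17.8) and between 3.87 and 11.4 in Ile (median 8.30), with no overlap. The mean was 7.60 ± 2.77 in Ile and 17.6 ± 1.44 in NEG (SD, n = 6 each), and the log2 fold change was −1.18 (SE 0.19, adjusted p = 0.0010 by limma). In Leu it was between 0 and 6.95 (median 5.06), with the 0 in Leu_1, where 3 reads would give 0.215 FPKM. In Val it was between 3.15 and 11.3 (median 3.72), with the highest value in Val_3. The gene thus fell stepwise from NEG through Ile to Leu and Val in its medians, while 2 Ile libraries reached into the Leu range.

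ENSBTAG00000052566, of 327 bp and a median of 67.5 reads, fell by nearly the same amount. Its FPKM was between 19.7 and 38.0 in NEG (median 23.2) and between 5.83 and 18.5 in Ile (median 9.98), again without overlap. The log2 fold change was −1.18 (SE 0.24, adjusted p = 0.0028 by limma). In Leu the FPKM ran from 0 to 11.8 (median 6.13) and in Val from 4.46 to 40.4 (median 5.87), where the other 5 Val libraries stayed at or below 10.8 and Val_3 reached 40.4. The Ile range overlapped the Leu and Val ranges.

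**Figure D4:**
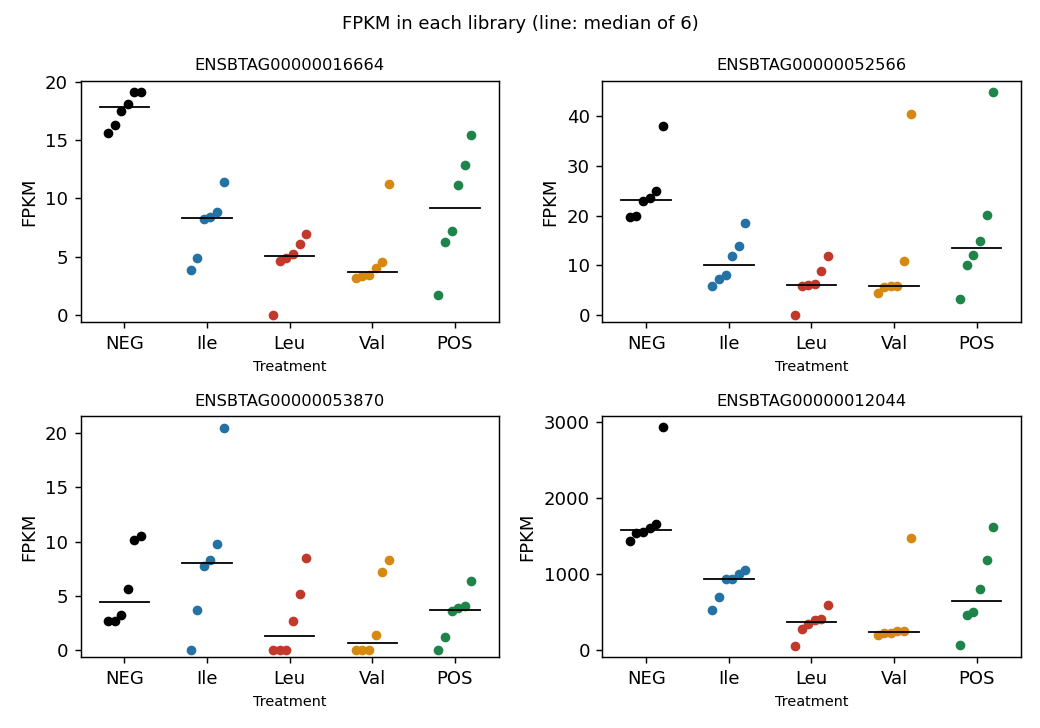
FPKM of 4 genes in each library of NEG, Ile, Leu, Val and POS (points, 6 per treatment, median as a line, linear axes). ENSBTAG00000016664 and ENSBTAG00000052566 have Ile libraries below all NEG libraries, ENSBTAG00000053870 overlaps in all treatments, and in ENSBTAG00000012044 the highest Val value of 1476 is Val_3.

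The other single EAA were compared with the same 6 NEG libraries, so these comparisons share their controls. The His, Met and Trp medians were often the lowest of the 10 that the score was set against, but their difference from NEG was not part of it. In His, 83 of the 100 genes were lower and 0 higher (34.4% of all genes tested were lower), with a median log2 fold change of −0.71. In Met, 75 were lower (29.9%, median −0.66), in Trp 66 (27.5%, median −0.58) and in Lys 64 (25.8%, median −0.44), with 0 higher in each. When each library was left out in turn, these counts stayed within 82 to 93 in His (31.6% to 39.3% of all genes), 62 to 81 in Met (24.96% to 33.4%), 54 to 73 in Trp (21.4% to 30.9%) and 58 to 70 in Lys (21.7% to 27.8%). In the single fit of all 72 libraries they were 52 in His (24.7% of all genes tested), 32 in Met (18.6%), 26 in Trp (14.0%) and 2 in Lys (5.68%), so Lys no longer stood above the share of all genes. In the fits of 12 libraries the 100 genes were called lower in these 4 treatments at a higher share than all genes tested.

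Arg, Phe and Thr gave few calls. In Arg the median log2 fold change was −0.55, but 8 genes were lower (4.35%), with a median SE of 0.28 over the 100 genes. At an unadjusted p under 0.05, 42 were lower (18.3% of all genes). Without Arg_4 the median was −0.30 and the count 26 (10.7%), and without Arg_1 or NEG_1 it was 0. It was 2 without Arg_2 or NEG_3, 1 without NEG_4 or NEG_5, and 4 without NEG_6, in fits where between 0.767% and 1.80% of all genes were called lower. In Phe 12 genes were lower (7.97%) and 2 were higher (4.23%), with a median of −0.15. At an unadjusted p under 0.05, 46 were lower (25.4% of all genes) and 4 higher (15.8%). The 2 higher genes were ENSBTAG00000020252 (log2 fold change 0.33, SE 0.10, adjusted p = 0.047 by limma) and ENSBTAG00000026819 (0.21, SE 0.06, adjusted p = 0.042 by limma). No gene was higher without any one of the 6 Phe libraries or without NEG_1, NEG_4, NEG_5 or NEG_6, and 5 were without NEG_2. Leaving out single libraries ended the call of ENSBTAG00000020252 and that of ENSBTAG00000026819 in 10 of 12 cases each. The count of genes lower in Phe was 35 without NEG_2 (20.6% of all genes), 0 without Phe_5, 1 without Phe_1, Phe_2 or Phe_4, 4 without NEG_5, and 5 without Phe_3 or NEG_1, in fits that called between 0.0330% and 1.52% of all genes lower. In Thr 0 genes passed in either direction by limma, 22 were lower and 15 higher at an unadjusted p under 0.05 (20.8% and 13.6% of all genes tested, about the same shares), and voom on the recovered reads also gave 0. Without NEG_2, 5 were lower and 13 higher in Thr, beside 12.2% and 9.26%. The median in Thr was −0.06 with a median SE of 0.11.

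The complete medium holds leucine and valine together with the other EAA. In POS against NEG, 18 of the 100 genes were lower (18.5% of all genes tested) and 2 were higher (14.3%), so the share of genes called lower was that of all genes. The median log2 fold change was −0.49 against −0.06 over all genes, and 75 had a negative sign. Without POS_4 the median of the 100 genes was −0.21. The median SE with all libraries was 0.32, larger than the 0.16 of Ile against NEG, and the POS levels ran from −1.97 in POS_4 to 0.27. The lower count was 33 without POS_1 (23.4% of all genes) and 27 without POS_4 (22.7%), where 10 were higher (18.9%). It was 7 without POS_5 (14.5%), 6 without POS_6 (14.4%) and between 7 and 9 without any one NEG library (14.6% to 17.7%). It was 34 in the single fit of 72 libraries (25.5%). In the treatment medians, POS minus NEG ran from −1.82 to 1.22 over the 100 genes, and 72 were below NEG.

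The largest fall in POS was in ENSBTAG00000027654, of 807 bp and a median of 1689.5 reads per library. Its FPKM was between 191 and 322 in NEG (median 215) and between 0.715 and 136 in POS (median 75.1), and the groups did not overlap. The log2 fold change was −2.36 (SE 0.86, adjusted p = 0.0495 by limma). Without POS_4, which held the 0.715, it was −1.43 (SE 0.26, adjusted p = 0.0010 by limma). The adjusted p rose to between 0.050 and 0.090 without POS_3, POS_5, POS_6 or any one NEG library, so this call depended on single libraries. In Leu its FPKM was between 0 and 84.3 (median 51.4) and in Val between 21.6 and 187 (median 26.2), where the other 5 Val libraries were at or below 35.8. ENSBTAG00000051305, of 459 bp and a median of 87 reads, had a log2 fold change of −1.88 (SE 0.53, adjusted p = 0.017 by limma), with FPKM between 16.0 and 26.9 in NEG and between 0 and 16.9 in POS. Its POS and NEG ranges overlapped slightly, and without POS_4 the log2 fold change was −1.35.

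The 2 genes called higher in POS went the other way from Leu and Val. ENSBTAG00000045547, of 1560 bp and a median of 258 reads, had FPKM between 8.05 and 42.7 in POS (median 26.5) and between 8.64 and 13.2 in NEG (median 10.8). Its log2 fold change was 1.11 (SE 0.31, adjusted p = 0.016 by limma). In Leu it was between 0 and 6.78 (median 5.27) and in Val between 4.40 and 9.20 (median 5.41). ENSBTAG00000001770, of 2387 bp and a median of 499.5 reads, was between 17.6 and 28.6 in POS (median 21.0) and between 13.6 and 15.7 in NEG (median 14.7), without overlap. The log2 fold change was 0.52 (SE 0.13, adjusted p = 0.0082 by limma). Its FPKM was between 1.89 and 11.2 in Leu (median 7.13) and between 6.42 and 11.5 in Val (median 7.87). Both genes were thus highest in POS and lowest in Leu and Val.

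The deposited FPKM carry the authors' scaling between libraries. Scaling by total recovered reads in its place moved the median log2 fold change of all genes up by between 0.05 (Thr) and 0.12 (POS). Genes called lower then made up 48.7% of all calls in Ile (61.4% with the deposited scaling), 40.8% in POS (56.4%), 36.0% in Arg (65.5%), 53.8% in Lys (64.9%), 49.6% in Trp (64.7%), 49.7% in His (59.5%), 54.3% in Met (62.8%) and 59.9% in Phe (65.3%). The median of the 100 genes stayed negative in each treatment, from −0.60 in His to −0.01 in Thr. The genes called lower numbered 64 in Ile, 80 in His, 69 in Met, 59 in Trp and 59 in Lys, beside 19.5%, 29.3%, 25.6%, 21.3% and 20.9% of all genes tested. In POS 9 were lower (13.9%) and 3 higher. The lower level of the 100 genes in Ile, His, Met, Trp and Lys was thus kept under this scaling.

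**Figure D5:**
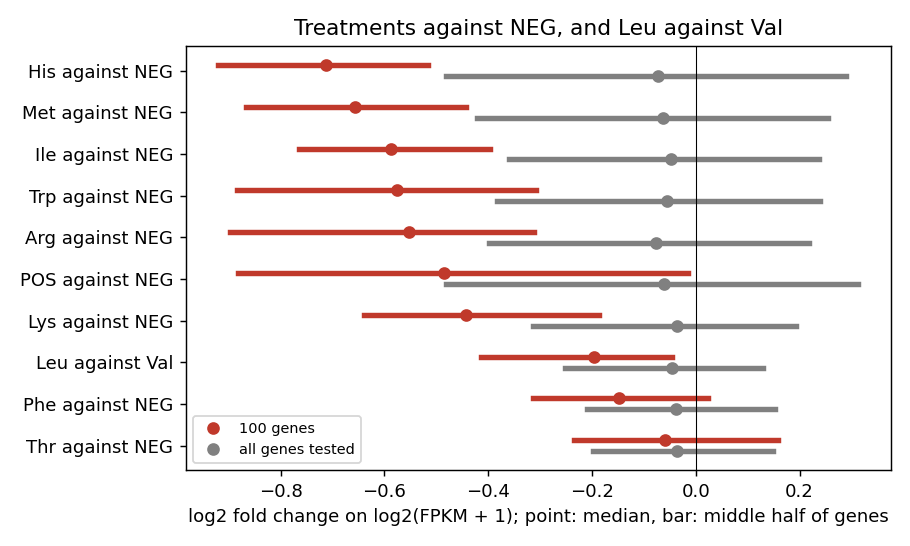
Log2 fold changes on the log2(FPKM + 1) scale for the 100 genes (red) and all 12121 genes tested (grey) for POS and the 8 single EAA other than Leu and Val against NEG, and for Leu against Val, differences that the score did not take. Points are medians and bars run from the lower to the upper quartile of genes. The red medians run from −0.71 in His to −0.06 in Thr, and the grey medians lie between −0.08 and −0.04.

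Leu and Val were compared with each other because the selection took only the higher of both medians. In the treatment medians 78 of the 100 genes were lower in Val and 22 were lower in Leu, with a median difference of Leu minus Val of 0.14. By limma 0 genes passed an adjusted p under 0.05 in either direction, where 0.157% of all genes tested were lower and 0.165% higher in Leu, and 0 of the 100 had an unadjusted p under 0.05. The smallest adjusted p among the 100 was 0.63, and voom on the recovered reads also gave 0. The median log2 fold change was −0.20 with a median SE of 0.41, so differences of that size could not be set apart from 0. The direction turned with single libraries, to 0.08 without Leu_1 and to 0.02 without Val_3. With both left out it was 0.26, and by limma 35 genes were higher in Leu (21.5% of all genes tested) and 0 lower (15.6%). These were the lowest Leu and the highest Val library in these genes, so their removal by itself moved the values in that direction. A difference between Leu and Val was not detectable with all 12 libraries, nor without either library alone, and the result without both depends on leaving out libraries whose values were seen.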

How the data were processed

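RNA-seq of 72 libraries (12 treatments, 6 replicates) was used. The table deposited by the authors holds FPKM of 29550 genes. The submitters' processing notes name HISAT2 (2.0.5), StringTie (1.3.3b), featureCounts (1.5.0-p3) and DESeq2 (1.20.0). For the genome build, no name is given in the sources used. The labels and the methods name different culture plates and library preparations, shared by all libraries. Columns were assigned to samples by name, and 0 columns were left unmapped.

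The members and lists were chosen with earlier results of these data known. Whole reads were recovered from the FPKM of 23683 genes (all values above 0 within 0.001 of a whole number, checked on simulated reads), which gave lengths and depth. Where a gene has few reads, its recovered length may be a divisor of the true one. Intervals and floors cover counting error only, since PCR copies were not marked. Tests used limma (3.58.1, R 4.3.3) on log2(FPKM + 1), with the prior variance following the mean level, for the 12121 genes whose mean FPKM reached 1, fitted on the 12 libraries of each pair of treatments, with Benjamini-Hochberg adjustment over all genes tested. The fold changes understate the change of low genes. Voom of limma on the recovered reads was an alternative. Scores and figures used Python (3.11.15), pandas (2.3.3) and matplotlib (3.10.9).

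Genes named by identifier were the 2 most negative scores and up to 2 per direction in a comparison. Lists of gene symbols, cell type markers, families and promoter motifs were not run, because no identifier was matched to a symbol. Replicate numbers were checked as pairs by the correlation of deviations from the treatment means. All 6 pairs of Trp and NEG were over 0.1 (lowest 0.102), so these were treated as paired in an alternative fit, and no other comparison met this.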

Additional observations from a re-analysis of the deposited data

Results flagged for a closer look

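A library was noted where its gap to the nearest of the other 5 libraries of its treatment, divided by the range of the 6, was above the critical value of Dixon's test for 6 values. Chance gives this in about 1 of 20 groups. Over the 48 groups of values examined, 14 were noted. For the level of the 100 genes this held in 3 of 12 treatments. Leu_1 was the lowest Leu library at −3.23, with the others between −1.33 and −0.78. Val_3 was the highest Val library at −0.14, with the others between −1.53 and −1.19. POS_4 was the lowest POS library at −1.97, with the others between −0.55 and 0.27.

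For the FPKM of 9 of the genes named (the 2 called higher in Phe were not examined), in 4 treatments each, 11 of 36 groups were noted, and 6 of these were Val_3 as the highest Val library. Its values were 11.3 for ENSBTAG00000016664 (others at most 4.52), 40.4 for ENSBTAG00000052566 (at most 10.8), 187 for ENSBTAG00000027654 (at most 35.8), 20.1 for ENSBTAG00000051305 (at most 5.78), 11.5 for ENSBTAG00000001770 (at most 8.04) and 1476 for ENSBTAG00000012044 (at most 260). In NEG, NEG_2 was the highest library for ENSBTAG00000052566 at 38.0 (others at most 24.8), for ENSBTAG00000027654 at 322 (at most 220) and for ENSBTAG00000012044 at 2926 (at most 1656), and the lowest for ENSBTAG00000054535 at 0.676 (others at least 6.35). Leu_1 was the lowest Leu library for ENSBTAG00000016664 at 0 (others at least 4.67). These genes share libraries, so the values are not independent of each other.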

How the results depend on the processing

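Of the 87 other settings that kept every single library or left out several together, 59 gave counts within 1.5 times those reported. The genes selected again numbered 28 with means, 53 with means and without Leu_1 and Val_3, and 65 without Leu_1, Val_3, Arg_4 and POS_4, the last 2 chosen after the data were seen. Without single libraries they numbered 77 to 90. With Ile in place of either amino acid, 2 genes (Leu with Ile) and 0 genes (Val with Ile) reached the same limit. In 1 fit of all 72 libraries, genes lower than in NEG numbered 21 in Ile (11.2% of all genes tested), 34 in POS (25.5%), 26 in Arg (15.5%), 52 in His (24.7%), 2 in Lys (5.68%), 32 in Met (18.6%), 0 in Phe (1.03%) and 26 in Trp (14.0%). With the study's limits (a change of more than 1 on the log2 scale with an unadjusted p under 0.05), they were 8 in Ile (1.22% of all genes tested), 14 in Arg (2.81%), 20 in His (4.15%), 6 in Lys (1.33%), 15 in Met (3.16%), 0 in Phe (0.00825%) and 17 in Trp (2.47%), and 1 gene was higher in POS (2.78%). Without the filter on low FPKM, where more genes are tested, they were 5 in POS (9.29%), 4 in Arg (1.199%) and 6 in Phe (1.07%). In POS, a pseudocount of 0.1 gave 11 (17.1%) and a scaling by total reads 9 (13.9%). The causes were not tested.

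The replicate number was also used as a block, although only Trp passed the limit of 0.1 for this, and narrowly (lowest correlation 0.102). Genes lower then numbered 69 in Trp (27.8% of all genes) against 66, 68 in Ile (21.9%), 20 in POS (17.1%), 0 in Arg (0.0578%) and 0 in Phe (0%). The block changed no other call by over 1.5 times. Without single libraries the ranges were 65 to 85 in Ile, 6 to 33 in POS (2 to 10 higher), 0 to 26 in Arg, 82 to 93 in His, 58 to 70 in Lys, 62 to 81 in Met, 0 to 35 in Phe, 0 to 5 in Thr, 54 to 73 in Trp and 0 to 0 for Leu against Val. Without Ile_1 and NEG_2 together, added after the data were seen, 92 were lower in Ile (32.9% of all genes). For the shortest genes, with few reads, depth limits the values.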

Other observations

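The same limit was applied to other pairs of treatments as a description. The score of the 100th gene or lower was reached by 62 genes for Arg with POS, 45 for Val with POS, 14 for Met with POS, 12 for Leu with POS, 11 for His with Val and 7 for Phe with Thr. In the opposite direction, 60 genes had both Leu and Val above the other 10 treatments by at least the size of that limit. Of the 100 rows with running names in place of Ensembl identifiers and a mean FPKM of at least 5, 2 were at or below the limit. These pairs of treatments were counted after the data were seen and share libraries.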
